A study of Owenia fusiformis with 11 samples.

Results

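The change in chromatin accessibility between the gastrula and the axial elongation stage was followed in Owenia fusiformis, a marine annelid with a feeding mitraria larva. Its members are the 4 ATAC-seq libraries of these stages, of the 11 samples in the series: 2 from elongation embryos collected 13 h post-fertilization and 2 from gastrulae collected 9 h post-fertilization. Each library was made from 50000 cells of pooled whole embryos, about 300 elongation embryos or about 500 gastrulae, which were reared in artificial sea water and carried no mutation or drug treatment. Another 4 libraries, 2 from mature larvae of 27 h and 2 from competent larvae of 3 weeks, served to follow the same peaks later. The members were taken from the stage columns of the deposited table of consensus peaks, and the names of the peak lists were not used to set a stage.

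ATAC-seq marks DNA that is not packed by nucleosomes, because the transposase Tn5 inserts sequencing adaptors where chromatin is open. Open sites include promoters and enhancers, where transcription factors bind, and sites that open or close in an embryo are commonly read as changes in the use of such elements. During gastrulation the endoderm and mesoderm move inside the embryo, and during elongation the embryo extends along its axis and takes on larval form. In whole embryos, a higher value can come from more cells with the site open or from more insertions per cell, and the 2 cannot be told apart here. No genome of the files' build was used, so peaks are given by their identifier and by their 1-based position on the scaffolds of the deposited table, without genes or sequence.

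The table held 63732 consensus peaks, of which 1863 were at 0 in all 8 libraries and 61869 were tested. The tested peaks covered 47.5 Mb on 40 scaffolds and had a median width of 615 bp. Values are normalized reads per peak. The approximate number of reads in peaks was 19176750 and 44690916 in the elongation libraries, against 12564928 and 9792969 in the gastrula libraries, so the elongation libraries were deeper. Across peaks, which are not independent replicates, log2 values of the elongation libraries correlated with each other at r = 0.971 and those of the gastrula libraries at 0.956, while gastrula replicate 1 correlated with elongation replicate 1 at 0.968. The replicates of the gastrula were therefore no closer to each other than 1 of them was to an elongation library. Per the study's methods, both elongation libraries and 1 gastrula library, not named, were sequenced on another platform than the other gastrula library. The mature larva libraries were on the platform of the elongation libraries, and both competent larva libraries on that of the other gastrula library. The part of the platform in the results was not tested.

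The single-library peak lists went against their sample links. Elongation was the stage in the names of the lists tied to gastrula samples, and gastrula that in the names of the lists tied to elongation samples. For the peaks that were higher at elongation in the table, the median fold enrichment over local background was 2.94 and 0 in the lists linked to elongation samples and 4.31 and 3.18 in the lists linked to gastrula samples. For the peaks that were lower at elongation, it was 4.50 and 3.08 in the lists linked to elongation samples and 3.04 and 2.42 in those linked to gastrula samples. The enrichment thus followed the names of the lists and the columns of the table, not the sample links. If the links held for the table as well, every direction given here would turn round.

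Of the 61869 tested peaks, 1058 (1.71%) differed between elongation and gastrula at a limma adjusted p under 0.05. Of these, 748 (1.21% of all tested peaks) were higher at elongation and are called opened, and 310 (0.501%) were lower at elongation and are called closed, so that 70.7% of the calls opened. Opened peaks had a median value of 626 and 615 in the elongation libraries, against 330 and 323 in the gastrula libraries. Closed peaks had a median of 279 and 265 in the elongation libraries, against 512 and 544 in the gastrula libraries. The typical change was thus close to 2-fold in either direction, with a median log2 change of 0.92 for opened and −0.93 for closed peaks. More than 2-fold changes were made by 289 opened peaks (38.6%) and 131 closed peaks (42.3%). Opened peaks covered 870 kb and closed peaks 314 kb.

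In the deposited scaling most peaks were slightly lower at elongation. The median log2 change over all tested peaks was −0.14. It was 0.03 after the median shift, 0.0065 with edgeR and 0.0093 with DESeq2. These scale the libraries so that the typical peak hardly changes, so the sign of the median there is no separate result. Relative to the −0.14 the median was 1.06 for opened and −0.79 for closed peaks. In all 748 opened and all 310 closed peaks the elongation and gastrula libraries did not overlap, but the same held for 13.4% of all tested peaks in the upward and 32.8% in the downward direction. The split between opened and closed peaks changed with the scaling: 1807 (2.92%) opened and 142 (0.23%) closed after the libraries were shifted to 1 median, and 1080 (1.75%) opened and 206 (0.333%) closed after quantile normalization. Count models on the approximate reads gave 2461 (3.98%) opened and 482 (0.779%) closed peaks with edgeR, and 2605 (4.21%) opened and 377 (0.609%) closed peaks with DESeq2. They called 997 and 989 of the 1058 peaks. Opened peaks outnumbered closed peaks in each of these fits.

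The counts rested on all 4 libraries: 394 peaks were called without elongation replicate 1, 28 without elongation replicate 2, 296 without gastrula replicate 1 and 132 without gastrula replicate 2, and 37, 2, 217 and 109 of these were among the 1058. With the 63732 peaks left unfiltered 38 were called, and with the 4 libraries fitted alone 202. An unadjusted p under 0.05 was reached by 11757 peaks, and with 2 libraries against 2 an exact permutation test of a single peak cannot go below p = 0.333. Nothing in the labels says that the 2 libraries of a stage came from separate cultures, although the study's reporting summary calls them biological replicates. The p-values rest on the spread between replicate libraries of all 4 stages, fitted together. The median absolute log2 difference between replicates was 0.240 at elongation and 0.295 at gastrula, against 0.179 in mature and 0.234 in competent larvae.

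The peaks with the largest opening, among those with a mean of at least 50 in the 4 libraries, rose about 4-fold and lay on different scaffolds. OFUS_peak_53578 (scaffold 20, 2835486 to 2836622, 1137 bp) had 536 and 493 normalized reads in the elongation libraries, against 161 and 91.1 in the gastrula libraries. Both elongation values were well above both gastrula values, with a log2 change of 2.08 ± 0.22 (standard error, limma adjusted p = 0.000891). OFUS_peak_33142 (scaffold 9, 14837955 to 14838621) had 824 and 740.0 at elongation, against 227 and 159 at gastrula. It shared the lowest adjusted p of the comparison, 0.000564 by limma, with a log2 change of 2.03 ± 0.19, and the gap between the stages was wider than either pair of replicates.

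OFUS_peak_59550 (scaffold 26, 3402126 to 3402961) was as large, with 565 and 477 at elongation, against 140.0 and 116 at gastrula. Its log2 change was 2.02 ± 0.19 (limma adjusted p = 0.000564), and another tested peak lay 89 bp away. At OFUS_peak_17625 (scaffold 5, 8280168 to 8280716) the values were 707 and 550.3 at elongation, against 137 and 206 at gastrula. These 4 strong peaks thus had gastrula values between 91.1 and 227, and none was at 0 there, although neither list named for the gastrula held a peak at any of the 4. The other 2 of the 6 had lower values. OFUS_peak_11162 (scaffold 3, 17745828 to 17747520) had 92.6 and 224 at elongation, against 41.1 and 32.8 at gastrula. In ratio, though not in normalized reads, its elongation replicates differed more from each other than those of the other 5. OFUS_peak_54730 (scaffold 21, 5756518 to 5756733), only 216 bp wide, had 92.0 and 67.2 at elongation, against 22.1 and 19.2 at gastrula. Neither list named for the gastrula held a peak at OFUS_peak_54730.

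**Figure D1:**
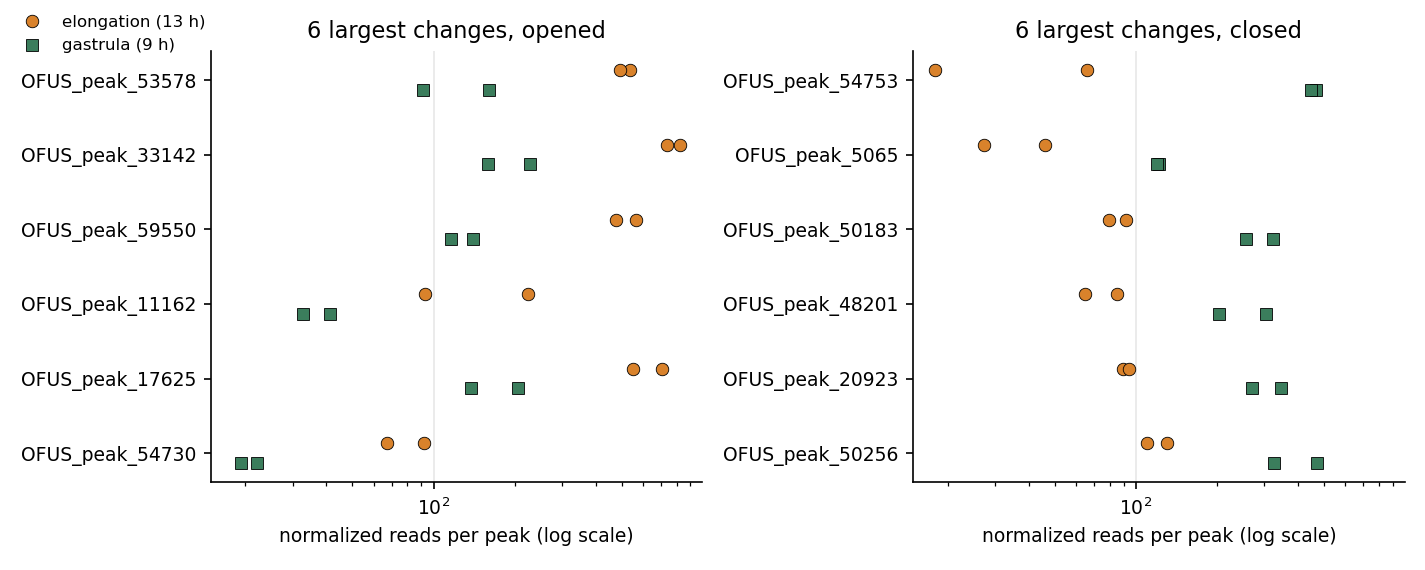
Values of the 6 peaks with the largest opening (left) and the 6 with the largest closing (right), in normalized reads per peak on a log axis; circles are the 2 elongation libraries and squares the 2 gastrula libraries. All 12 peaks were chosen without overlap between the stages. OFUS_peak_54753 has the widest gap, with 65.6 and 18.0 at elongation against 466 and 448 at gastrula.

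The largest closing was larger than any of these openings but also the most variable. OFUS_peak_54753 (scaffold 21, 6571376 to 6571939) had 65.6 and 18.0 in the elongation libraries, against 466 and 448 in the gastrula libraries. The gastrula replicates were alike and the elongation replicates were far apart, and the log2 change was −3.69 ± 0.76 (limma adjusted p = 0.0258). Its larval values were 142 and 183 in the mature and 69.7 and 6.10 in the competent larva, where the replicates were again far apart. The next 5 peaks closed a little over 3-fold and were close to one another in size. OFUS_peak_5065 (scaffold 2, 7637652 to 7637931) had 45.9 and 27.3 at elongation, against 122 and 119 at gastrula. OFUS_peak_50183 (scaffold 17, 8926892 to 8927727) had 91.9 and 79.4 at elongation, against 256 and 323 at gastrula, and OFUS_peak_48201, described with the larvae, had a log2 change of −1.74 ± 0.31. At each of them the higher elongation value stayed below the lower gastrula value, as the choice of named peaks required.

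The last 2 of the 6 closed by about as much. OFUS_peak_20923 (scaffold 6, 4464734 to 4465701) had 89.9 and 93.9 at elongation, against 270.1 and 345 at gastrula, with a log2 change of −1.72 ± 0.28 (limma adjusted p = 0.00826). OFUS_peak_50256 (scaffold 17, 9472928 to 9473429) had 130.4 and 109.9 at elongation, against 469 and 325 at gastrula, with a log2 change of −1.70 ± 0.26 (limma adjusted p = 0.00519). Both stayed low afterwards, with values between 74.3 and 111 in the 4 larval libraries of OFUS_peak_20923 and between 74.4 and 93.8 in those of OFUS_peak_50256. Of the 310 closed peaks, 0 were at 0 in both elongation libraries. Such peaks were also rare among all tested peaks, at 306 of 61869, so this does not set closed peaks apart.

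Few opened peaks were listed at 0 in the gastrula. Of the 748, 7 were at 0 in both gastrula libraries of the table, as were 1251 of all tested peaks, and their elongation means lay between 6.96 and 22.9. OFUS_peak_46470 (scaffold 15, 8412652 to 8413207) had 25.5 and 20.4 at elongation, about 27 and 53 reads, against 0 and 0 at gastrula. Against a floor of 3 reads per gastrula library it was at least 4.50-fold higher. It was low again in the larvae, at 1.51 and 1.21 in the mature and 7.20 and 8.15 in the competent larva. OFUS_peak_60926 (scaffold 28, 840003 to 840327) had 22.7 and 9.61 at elongation, against 0 and 0 at gastrula, and was at least 3.16-fold higher against the same floor. A list named for the gastrula nevertheless held a peak that overlapped each of the pair, with a fold enrichment of 3.43 at OFUS_peak_46470 and 3.08 at OFUS_peak_60926. The lists named for elongation gave similar values, 3.83 and 2.71 at OFUS_peak_46470 and 2.69 and 2.24 at OFUS_peak_60926. A 0 in the table thus does not show that no read was there. Both bounds take the gastrula values of 0 as they stand, so the opening of this pair is uncertain. With the 7 peaks held at their bound, the median log2 change of the opened peaks remained 0.92. A floor of 3 reads was worth 2.83 and 1.16 normalized reads in the elongation libraries, against 4.43 and 5.77 in the gastrula libraries, and the part of depth in these calls was not tested.

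Opened and closed peaks both had higher levels than most peaks. A change of a given size is more easily called in a high peak, and the part of this in the levels was not tested. The median of the mean over the 8 libraries was 700 for opened, 324 for closed and 186 for all tested peaks. Of the opened peaks 92.9% had a mean of at least 200, as had 80% of the closed and 46.7% of all peaks. Per kilobase of peak, the median level was 644 for opened, 371 for closed and 345 for all tested peaks, so opened peaks were dense in reads as well as large. Of these 8 libraries 6 are from elongation or later, so the mean is raised by opening and lowered by closing. Over the 4 embryonic libraries alone, a choice made after seeing the data, the median level was 476 for opened, 403 for closed and 190 for all tested peaks. At gastrula alone the opened peaks, with the medians of 330 and 323 given above, were already above the medians of 194 and 205 over all tested peaks, and the closed peaks, at 512 and 544, were further above them.

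The share of called peaks rose with level, and how far opening and closing differed depended on which libraries set the level. The part of easier calling at high levels in this rise was not tested. With classes from the 8-library mean, among the 2606 peaks with a mean of 1000 or more, 216 (8.29%) opened and 12 (0.46%) closed. With classes from the mean of the 4 embryonic libraries, 80 (3.41%) opened and 26 (1.11%) closed of 2344 peaks at 1000 or more, so the gap was much smaller. For the 8-library mean, between 200 and 1000 the shares of 26304 peaks were 1.82% opened and 0.897% closed, and between 50 and 200 the order turned, with 0.146% opened and 0.225% closed of 26676. Of the 2810 peaks between 10 and 50, 5 opened and 2 closed, and of the 3473 peaks under 10, 9 opened and 0 closed in the limma fit. In this lowest class 68 peaks were lower at elongation at an unadjusted p under 0.05, and edgeR and DESeq2 also closed 0 of them, while quantile normalization closed 9. The 9 openings of this class were not kept in number by the count models: edgeR opened 2 peaks there and DESeq2 0. Quantile normalization opened 12 and the median shift 16. The turn between 50 and 200 was not kept with the embryonic classes, where 76 opened and 47 closed, nor in the other fits, in which opened peaks outnumbered closed ones there: 326 against 214 with edgeR, 184 against 83 with DESeq2, 131 against 38 after the median shift and 67 against 26 after quantile normalization. In the 8-library class of 1000 or more, opened peaks were 24.8% against 0.537% closed with edgeR and 29.01% against 0.614% with DESeq2.

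**Figure D2:**
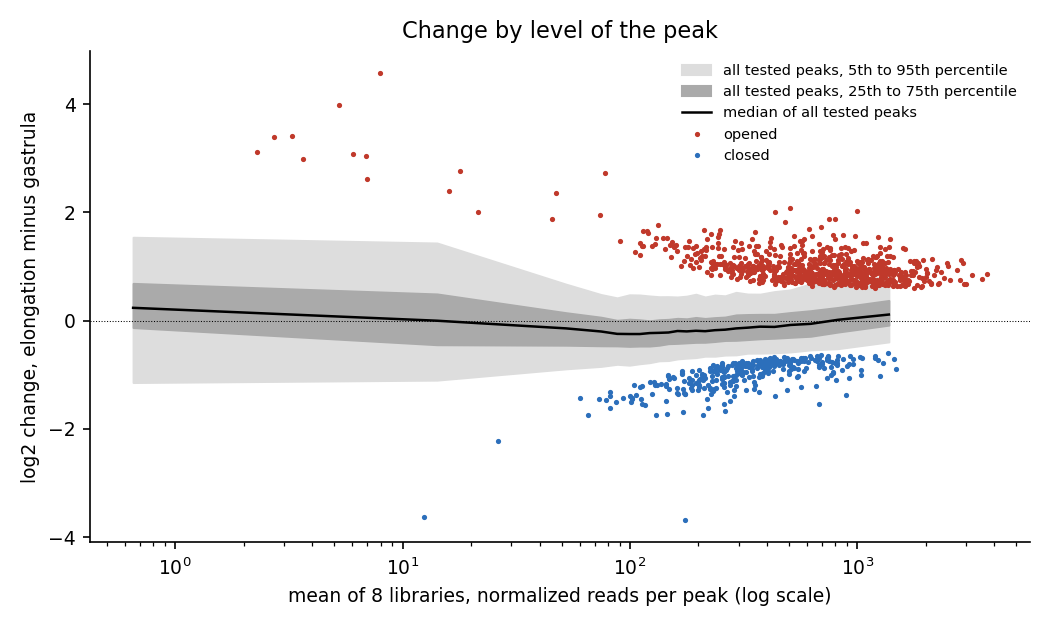
Log2 change (elongation minus gastrula) of the 748 opened (red) and 310 closed (blue) peaks against their mean over the 8 libraries in normalized reads (log axis), over the median and the percentile bands of all 61869 tested peaks in 24 bins of equal size. The median of all peaks is below 0 at middle levels and at 0.11 in the highest bin, and called peaks are rare below a mean of 50.

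The change over all peaks, called or not, also differed between the 8-library classes. The median log2 change was −0.22 for peaks between 50 and 200, −0.12 between 200 and 1000 and 0.11 at 1000 or more, where it was 0.02 with classes from the 4 embryonic libraries. Of the highest class, both elongation libraries were above both gastrula libraries in 40.9% and below them in 14.6%, against 13.4% and 32.8% over all tested peaks. The sign of the median was kept in the classes from 50 to 200 and of 1000 or more under quantile normalization, the median shift, edgeR and DESeq2. It turned in the class from 200 to 1000, which was at 0.05 after the median shift, 0.03 with edgeR and 0.04 with DESeq2. Peaks of 1000 or more took 22.8% and 22.1% of all normalized reads in the elongation libraries, against 20.8% and 18.9% in the gastrula libraries, with the peaks again chosen by the 8-library mean, and the part of this shift in the counts was not tested.

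**Figure D3:**
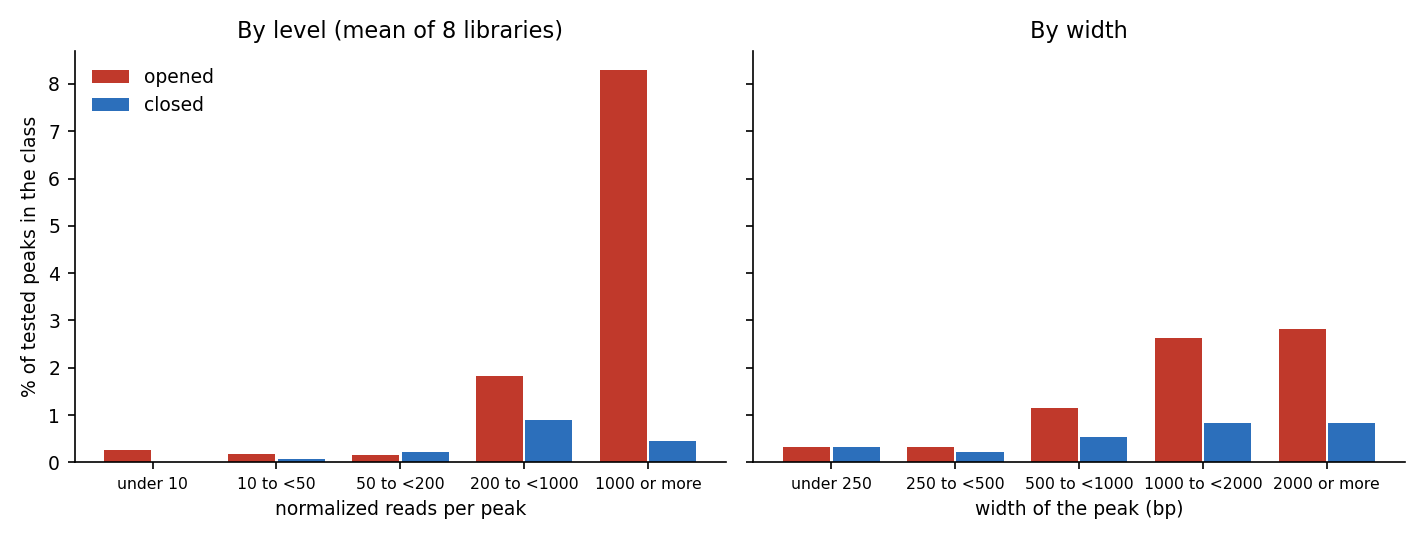
Percentage of the tested peaks that opened (red) and closed (blue) at elongation, by mean level over 8 libraries in normalized reads (left) and by width in bp (right). Opened peaks reach 8.29% in the class of 1000 or more (3.41% when the 4 embryonic libraries set the level), and by width both shares are highest from 1000 bp on.

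Opened and closed peaks were also wider than the rest. The median width was 1106 bp for opened and 900.5 bp for closed peaks, against 615 bp over all tested peaks. Of peaks under 250 bp, 0.335% opened and 0.322% closed, and of peaks of 2000 bp or more, 2.81% opened and 0.828% closed. Wide peaks hold more reads, and at a given level this order was not kept. Among peaks with a mean between 200 and 1000, 4.37% of the 206 peaks under 250 bp opened, against 1.95% of those between 1000 and 2000 bp and 1.16% of those of 2000 bp or more. At a mean of 1000 or more, 12.0% of the peaks between 500 and 1000 bp, 11.2% between 1000 and 2000 bp and 4.70% of 2000 bp or more opened. In the largest class, from 50 to 200, the order was another one: 0.53% of the 754 peaks between 1000 and 2000 bp opened, against 0.09% to 0.21% of the narrower ones, and 0 of 46 peaks of 2000 bp or more. No single relation between width and opening held over the level classes.

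The widest opened peaks were broad regions that were strongly accessible at both stages. OFUS_peak_4302 (scaffold 1, 37884431 to 37887807) was 3377 bp wide and had 3109 and 2485 at elongation, against 1591 and 1675 at gastrula. OFUS_peak_49902 (scaffold 17, 6874644 to 6877867, 3224 bp) had 2384 and 2219.9 at elongation, against 1041 and 1048 at gastrula. Its replicates were close at both stages, and the log2 change was 1.14 ± 0.15 (limma adjusted p = 0.00207). OFUS_peak_26896 (scaffold 7, 19615922 to 19619002, 3081 bp) was alike, with 2234 and 2264 at elongation, against 1020.0 and 1137 at gastrula.

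The opened peaks of the highest level changed less. OFUS_peak_20233 (scaffold 5, 25920182 to 25923031) had 4329 and 4111 at elongation, against 2869 and 2398 at gastrula, with a log2 change of 0.69 ± 0.16 (limma adjusted p = 0.0424). OFUS_peak_28435 (scaffold 8, 6266629 to 6268679) had 3733 and 2929.9 at elongation, against 1959 and 1677 at gastrula. For OFUS_peak_47736 (scaffold 16, 1358571 to 1361181) the values were 3167 and 2668 at elongation, against 1799 and 1816 at gastrula. Like all named peaks, these were chosen without overlap between the stages, and in the last 2 the elongation replicates lay further apart than the gastrula replicates.

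Among closed peaks, the widest and the highest were much the same kind of site, near 2000 normalized reads at gastrula and near 1200 at elongation. OFUS_peak_50360 (scaffold 17, 10418625 to 10421964, 3340 bp) had 1286 and 1032 at elongation, against 2060.1 and 1916 at gastrula. OFUS_peak_17818 (scaffold 5, 9485428 to 9488477, 3050 bp) had 1153 and 1285 at elongation, against 1765 and 1921 at gastrula, and its log2 change of −0.60 ± 0.14 (limma adjusted p = 0.0493) was the smallest of all closed peaks; its call was kept in only 2 of 13 alternatives and lost with both count models (adjusted p = 0.094 with edgeR and 0.0502 with DESeq2, and 0.0174 to 0.259 over all 13). OFUS_peak_1338 (scaffold 1, 9673280 to 9676271, 2992 bp) had 1066 and 1009.8 at elongation, against 1655 and 1656 at gastrula. All 3 stayed far above the level of a typical peak at elongation.

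The 3 closed peaks of the highest mean were OFUS_peak_29120 (scaffold 8, 11151400 to 11154374), OFUS_peak_33844 (scaffold 9, 19461898 to 19464786) and OFUS_peak_51717 (scaffold 18, 7307474 to 7309001). OFUS_peak_29120 had 1212 and 1356 at elongation, against 2081 and 2135 at gastrula. OFUS_peak_33844 had 1126 and 1106 at elongation, against 2203 and 2334 at gastrula, with a log2 change of −1.02 ± 0.15 (limma adjusted p = 0.00506). It was the only one of the 3 to change by 2-fold. OFUS_peak_51717 had 1404 and 1145 at elongation, against 2344 and 1795 at gastrula.

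Opened and closed peaks were spread over the genome. On the 33 scaffolds with at least 200 tested peaks, the share of opened peaks lay between 0.475% and 2.79% with a median of 1.22%, and the share of closed peaks between 0 and 1.75% with a median of 0.507%. Opened peaks outnumbered closed ones on 30 of these scaffolds. The exceptions were scaffold 20, with 9 of each, and scaffolds 30 and 32. The highest shares of opened peaks were on scaffold 29, with 11 of 394, and scaffold 23, with 15 of 880 (1.70%). The lowest were on scaffold 30, with 2 of 421, and scaffold 14, with 13 of 1788 (0.727%).

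For closing, scaffold 32 had the highest share, with 4 of 229 peaks, and scaffold 30 the next, with 4 of 421 (0.950%). Scaffold 4 had 7 closed peaks of 3977 (0.176%) beside 63 opened ones. Scaffold 26 had 0 closed peaks of 800 in the limma fit, although 110 of its peaks were lower at elongation at an unadjusted p under 0.05, and edgeR closed 5 and DESeq2 4 of them. Shares on the small scaffolds rest on few peaks, and with edgeR scaffold 30 had 14 opened and 6 closed peaks and scaffold 32 had 12 opened and 6 closed.

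At a finer scale, opened peaks had opened neighbours. Another opened peak lay within 10 kb of 165 opened peaks (22.1%), against 3.95% of the peaks that were not called and 1 closed peak (0.323%). Another closed peak lay within 10 kb of 22 closed peaks (7.097%), against 1.55% of the peaks that were not called and 1 opened peak (0.134%). The median gap to any tested peak was 1534 bp for opened, 1658 bp for closed and 1877 bp for all tested peaks. Neighbouring peaks can share fragments and come from 1 open region, so they are not independent. Opened and closed peaks came within 10 kb of each other at 1 place only, on scaffold 13. There OFUS_peak_41910 (7711054 to 7711211) opened, with 183 and 176 at elongation, against 64.6 and 83.0 at gastrula. The other, OFUS_peak_41907 (7701486 to 7702096), lay 8957 bp away and closed, with 233 and 233 at elongation, against 426 and 685 at gastrula.

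Of 2014 windows of 250 kb with a tested peak, 540 held an opened peak, 272 a closed peak and 64 both. Of these windows 45 held 3 or more opened peaks and 4 held 3 closed peaks, the most seen. The window with the most opened peaks, 6 of 41, was at 11000001 to 11250000 of scaffold 15, with a median log2 change of 0.09 over its tested peaks, against −0.14 over all. Its 6 opened peaks were OFUS_peak_46867, OFUS_peak_46873, OFUS_peak_46893, OFUS_peak_46894, OFUS_peak_46895 and OFUS_peak_46899, the last 4 of them between 11207083 and 11227381. OFUS_peak_46899 (11224646 to 11227381) was the highest, with 1701 and 1493 at elongation, against 753 and 777 at gastrula, and a log2 change of 1.06 ± 0.14 (limma adjusted p = 0.00251). The other 5 had log2 changes between 0.87 and 1.03.

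On scaffold 4, the window from 13500001 to 13750000 held 5 opened peaks of 43, all between 13595656 and 13611405. They ranged from OFUS_peak_14545 (13603394 to 13603600), a 207 bp peak with 309 and 180.3 at elongation, against 76.4 and 110.1 at gastrula, to OFUS_peak_14543 (13597876 to 13599060). The values of OFUS_peak_14543 were 2718 and 2336 at elongation, against 1408 and 1387 at gastrula. Weak and strong peaks of this stretch thus opened together, OFUS_peak_14542, OFUS_peak_14546 and OFUS_peak_14547 included. Another 6 windows also held 5 opened peaks, and this one comes first by scaffold among the 7.

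The windows with 3 closed peaks named here were on scaffolds 5 and 8. On scaffold 5 (11500001 to 11750000) OFUS_peak_18113, OFUS_peak_18114 and OFUS_peak_18132 closed, of 48 tested peaks. OFUS_peak_18113 (11570660 to 11570795), 136 bp wide, had 228 and 148 at elongation, against 447 and 452 at gastrula, and continued down to 69.6 and 52.1 in the competent larva. On scaffold 8 (7250001 to 7500000) OFUS_peak_28573, OFUS_peak_28582 and OFUS_peak_28585 closed, of 21 tested peaks with a median log2 change of −0.42. OFUS_peak_28573 (7400320 to 7401811) had 768 and 543 at elongation, against 1199 and 1226 at gastrula. It was back at 1178 and 1135 in the mature larva, while OFUS_peak_28582 (7462364 to 7464676), with 741 and 508 at elongation, against 1261 and 1200.0 at gastrula, stayed at 636 and 651.

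Most opened peaks went on to higher levels in the larvae, and most closed peaks stayed down. The median stage mean of opened peaks was 324 at gastrula, 628 at elongation, 907 in mature larvae and 876 in competent larvae. That of closed peaks was 529, 273, 253 and 247 over the same stages. All tested peaks drifted from 200 at gastrula to 178, 173 and 169. After elongation the median of closed peaks fell little further, whereas that of opened peaks rose again by the mature larva. Both sets were chosen by their step from gastrula to elongation, so the size of that step follows in part from the call.

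**Figure D4:**
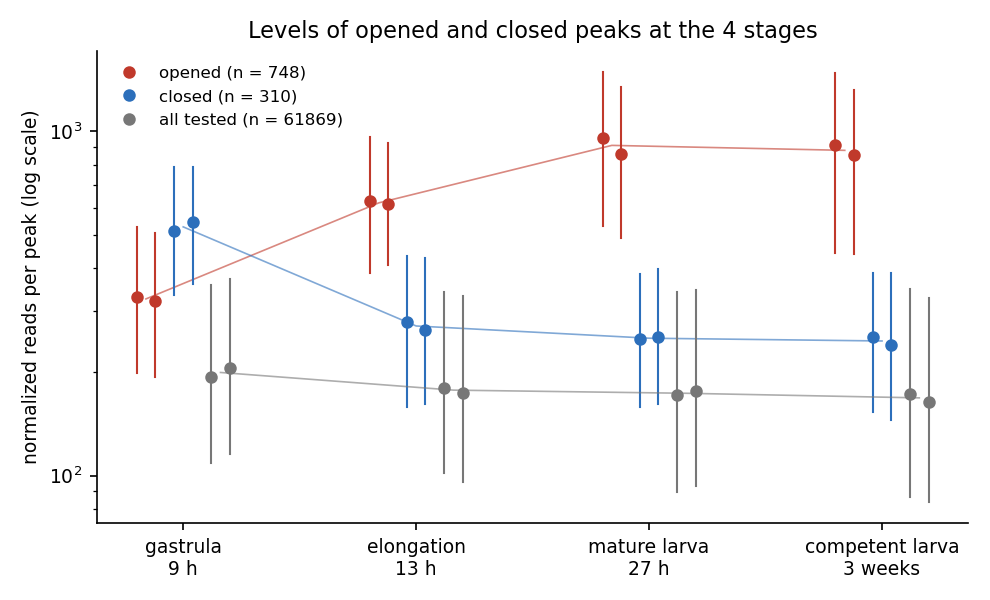
Median (point) and 25th to 75th percentile (line) of normalized reads per peak in each of the 8 libraries, for opened, closed and all tested peaks, with stages in order of age; the y axis is logarithmic and thin lines join the means of the 2 library medians. Opened peaks start below closed ones at gastrula and lie above them from elongation on, reaching 960.3 and 862 in the mature larva.

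Single peaks followed the same course. The mature larva mean was above both embryonic means in 618 opened peaks (82.6%), between them in 125 and below both in 5, and over all tested peaks it was above both in 28.9%. For closed peaks, the mature larva mean was above both in 10 and between them in 115, and in 185 (59.7%) it was below both, against 48.4% of all tested peaks. In the competent larva, 520 opened peaks (69.5%) were above both embryonic means and 38 (5.08%) below both. Of the closed peaks, 14 (4.52%) were above both and 187 (60.3%) below both. Over all tested peaks 28.4% were above both and 54.7% below both, the latter a share near that of the closed peaks. The stage of the highest mean was the mature larva for 335 opened peaks, the competent larva for 303 and elongation for 110. It was the gastrula for 291 of the closed peaks (93.9%), the mature larva for 6 and the competent larva for 13. Among all tested peaks 46.8% were highest at gastrula, and since the call fixes the order of gastrula and elongation, a part of these counts follows from the call.

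Between elongation and the mature larva, 326 opened peaks (43.6%) opened again and 26 (3.48%) closed, against 5.92% and 4.58% of all tested peaks. Of the closed peaks, 26 (8.39%) opened and 50 (16.1%) closed. This comparison shares the elongation libraries with the first, so the values stand beside each other only as a description: the median log2 change was 0.92 and then 0.49 for opened peaks, and −0.93 and then −0.11 for closed peaks. After quantile normalization the share of opened peaks that opened again was 28.9%. Between the mature and the competent larva, which share no library with the embryonic comparison, 63 opened peaks (8.42%) opened and 138 (18.4%) closed, against 7.99% and 7.33% of all tested peaks. The mature and competent larva libraries were sequenced on different platforms, so stage and platform cannot be told apart in this comparison. The median log2 change of the opened peaks was −0.08 there, as it was over all tested peaks. Of the closed peaks, 26 (8.39%) opened and 25 (8.06%) closed there, shares near those of all peaks. Called peaks had higher levels than most, where a change is more easily called. The part of level in the shares of either later comparison was not tested.

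**Figure D5:**
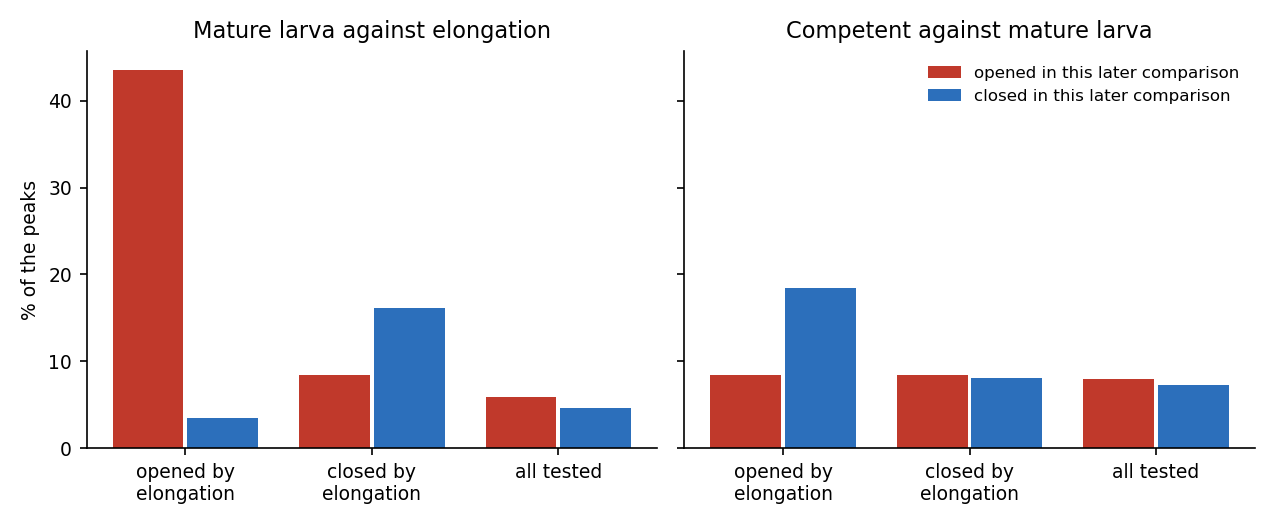
Percentage of the opened, closed and all tested peaks that opened (red) or closed (blue) in the mature larva against elongation (left; this comparison shares the elongation libraries) and in the competent against the mature larva (right). Opened peaks opened again in 43.6% in the first and closed in 18.4% in the second comparison, where stage and platform cannot be told apart.

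The opened peaks with the highest larval levels over elongation kept rising at each step. OFUS_peak_33795 (scaffold 9, 19110124 to 19110996) had 371 and 279 at elongation, against 199 and 154 at gastrula, and then 825 and 744 in the mature and 2411 and 2208 in the competent larva. OFUS_peak_37133 (scaffold 11, 11785072 to 11785368) was lower, with 109.8 and 72.0 at elongation, against 23.5 and 34.8 at gastrula, and then 174 and 221 in the mature and 643 and 541 in the competent larva. Both passed the test in all 3 consecutive comparisons, as did 31 opened peaks in all. At the other end, OFUS_peak_22628 (scaffold 6, 16198320 to 16199449) had 245 and 391 at elongation, against 134 and 108 at gastrula, and then 158 and 93.4 in the mature and 60.0 and 64.3 in the competent larva. OFUS_peak_23806 (scaffold 6, 23789707 to 23791149) had 830.0 and 759 at elongation, against 407 and 422 at gastrula, and then 381 and 389.8 in the mature and 115 and 203 in the competent larva. These 2 peaks, 2 of the 6 opened peaks that closed at both later steps, were open most at elongation.

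Closed peaks had as varied ends. OFUS_peak_49410 (scaffold 17, 3574050 to 3574720) had 92.8 and 96.5 at elongation, against 178 and 151 at gastrula, and then 449 and 371 in the mature and 1233 and 1195 in the competent larva. Its gain in the larvae was far larger than the difference between the embryonic stages, and the closing call was kept in only 2 of 13 alternatives (adjusted p = 0.063 with edgeR and 0.053 with DESeq2, and 0.0289 to 0.316 over all 13). OFUS_peak_48201 (scaffold 16, 5268394 to 5268543) had 64.7 and 84.9 at elongation, against 204 and 303 at gastrula, and was back at 211 and 188 in the mature larva. OFUS_peak_37513 (scaffold 11, 15507945 to 15508507) had 671 and 554 at elongation, against 1504 and 1038 at gastrula, and then 182 and 190.5 in the mature and 103 and 83.0 in the competent larva. OFUS_peak_41969 (scaffold 13, 8173960 to 8174793) had 1293 and 810.1 at elongation, against 2705 and 1675 at gastrula, and then 216 and 253 in the mature and 212 and 218 in the competent larva. In these last 2 the loss at elongation was a first step, and the loss by the mature larva was larger, with log2 changes of −1.71 and −2.13.

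The larval peak lists, called on single libraries by the authors, gave the same order. Of the opened peaks 89.8% overlapped a peak in both mature larva lists, against 34.2% of the closed and 38.8% of all tested peaks. In both competent larva lists the shares were 83.7% of opened, 24.8% of closed and 33.5% of all tested peaks. Opened peaks were high, and a high peak is more easily called, so the part of level in these shares was not tested. An overlap of 1 bp counted, and with at least 50% of the consensus peak covered the shares in both mature larva lists were 78.9% of opened, 11.6% of closed and 21.4% of all tested peaks.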

How the data were processed

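Chromatin accessibility was measured by ATAC-seq in 8 libraries of 4 stages, and RNA-seq was not used here. The authors trimmed reads, mapped them with NextGenMap, removed duplicates and corrected read positions for Tn5. Peak calling used MACS2 2.2.7.1 on single libraries. They kept reproducible peaks outside repeats, merged them with DiffBind and normalized the reads per peak with DESeq2; the deposited values are this signal per consensus peak. The deposited peak lists give fold enrichment, a ratio to local background. For the genome build, no name is given in the sources used here. Another 2 accessibility columns were not used. At the lowest values 97.2% to 100% of values per library were whole multiples of the value of 1 read (tolerance 0.1), and over all values 10.9% to 45.2%, so reads were recovered approximately.

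Stages were compared on the log2(value + 1) scale by limma 3.58.1 (R 4.3.3), with a mean trend and 1 model over the 8 libraries. Peaks at 0 in all 8 were left out, and calls were made at a Benjamini-Hochberg adjusted p under 0.05 over all tested peaks and any size of change. Log2 changes on this scale understate those of low peaks. Alternatives were a pseudocount of 8, filters, scalings, fewer libraries, a replicate block, and count models on the approximate reads with edgeR 4.0.16 (2943 calls) and DESeq2 1.42.0 (2982 calls). Only the limma step, for elongation against gastrula, was tested on simulated counts. Overlaps used bedtools 2.31.1.

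Named peaks were called, did not overlap between stages and had a mean of at least 50 over the 4 libraries: the 6 with the largest change, the 3 widest, the 3 highest, and the 2 with the highest and the 2 with the lowest larval over elongation level, each for opened and for closed peaks. Added were the 2 highest peaks at 0 in both gastrula libraries, the 2 windows and the 2 scaffolds with the highest counts or shares (for scaffolds also the lowest), and the only neighbours within 10 kb that changed in opposite directions, chosen after their values were seen. The peaks and rules were chosen with earlier results of these data known. Read counts limit counting error only, and reads are not independent molecules.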

Additional observations from a re-analysis of the deposited data

How the results depend on the processing

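No named peak changed direction under any alternative run, but named peaks were chosen as called and without overlap between the stages. Leaving out a library could therefore not reverse them, and their kept direction is no check. The number of calls moved widely, and the cause was not tested. Against 1058 calls (748 opened, 310 closed, 70.7% opened), leaving the peaks unfiltered gave 38 calls (34 opened, 4 closed, 89.5% opened). The 4 libraries alone gave 202 (152 opened, 50 closed). Leaving out 1 library at a time gave between 28 and 394 calls, between 25 and 377 opened peaks, between 3 and 55 closed peaks and 81.4% to 95.7% opened, with a lone library assumed to vary like the other stages. The libraries shifted to the same median gave 1949 calls (1807 opened, 142 closed, 92.7% opened). Quantile normalization gave 1286 calls, of which 206 closed and 84.0% opened. edgeR on approximate reads gave 2943 calls (2461 opened, 482 closed, 83.6% opened), and DESeq2 gave 2982 (2605 opened, 87.4% opened). A pseudocount of 8 gave 176 closed peaks and a mean of at least 10 gave 564. The median log2 change over tested peaks, −0.14, was −0.0222 after quantile normalization, 0.0296 after the median shift, 0.0065 with edgeR and 0.0093 with DESeq2. Under these scalings the typical peak hardly changes by design, so the sign of the median is no separate result.

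With the replicate block there were 1937 calls (1202 opened, 735 closed), which held all 1058. The labels do not say that a replicate number marks a shared batch; deviations of same-numbered libraries correlated at r = 0.241 between elongation and gastrula, the highest value, and at −0.00333 to 0.116 between other stages. Whether same-numbered libraries share a batch was not tested.

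For the later comparisons, calls between elongation and the mature larva were 6497, or 1733 without a filter and 4064 after quantile normalization, and calls between the mature and the competent larva were 9478, or 4945 without a filter. After quantile normalization 28.9% of opened peaks opened again by the mature larva, and of closed peaks 5.34% opened and 24.3% closed. With 50% of the peak covered, 51.2% of opened peaks were in both competent larva lists, and of closed peaks 11.6% were in both mature and 7.74% in both competent larva lists. Of 33 named peaks, 33 kept their call with the replicate block, 31 with edgeR, 25 with DESeq2, 26 after quantile normalization, 27 after the median shift, 22 with a pseudocount of 8, 14 with the 4 libraries alone, 1 without a filter, and 1 to 8 with a library left out. Of the shares and medians by level or width, recomputed under a pseudocount of 8 (medians), quantile normalization, the median shift, a mean of at least 10 or level classes from the 4 embryonic libraries (added after seeing the data), 47 values moved past their limit and 34 did not. Depth limits the low peaks most, since 3 reads were worth 2.83 and 1.16 in the elongation libraries and 4.43 and 5.77 in the gastrula libraries.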
